A study of Homo sapiens with 2 samples.

Results

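The clock output transcription factors are regulators through which the circadian clock reaches its target genes. They were examined here as 9 listed genes, NR1D1, NR1D2, RORA, DBP, TEF, HLF, NFIL3, BHLHE40 and BHLHE41, out of 19715 protein-coding genes with a usable record. All 9 had a record. The genes were chosen by name, and every peak at the 5′ end (3 kb on either side), inside the gene record or within 20 kb of it was taken. The study used untreated cells of MDA-MB-231, a human line long established from a triple-negative breast cancer. It comprised 2 libraries, 1 with an antibody against PRMT6, which methylates arginines, and 1 with an antibody against PARP1, which attaches ADP-ribose to proteins. To find the promoters that both proteins occupy, the study relied on CUT&Tag, in which an antibody guides a transposase to cut nearby DNA, although the labels also describe ligating adaptors to precipitated DNA. The labels name no step that synchronises the cells and no time of collection, so the phase of the clock is unknown.

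The clock is a set of interlocked feedback loops. CLOCK and BMAL1 bind E-box elements and activate the period and cryptochrome genes, the REV-ERB genes NR1D1 and NR1D2, the PAR bZIP genes DBP, TEF and HLF, and the bHLH genes BHLHE40 and BHLHE41. The REV-ERB proteins repress, and RORA activates, genes with ROR elements, BMAL1 among them. The PAR bZIP proteins activate and NFIL3 represses genes with D-boxes, and the proteins of BHLHE40 and BHLHE41 repress through E-boxes.

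The PRMT6 list held 9080 peaks and the PARP1 list 11651. Each peak carries a score, the −log10 of the p-value from the authors' peak caller, whose size is not comparable between the lists. Peaks were therefore ranked within their own list, where rank 1 is the highest score and peaks of equal score share the best rank. A percentile is the share of the list with a lower score, with ties counted in equal parts. The read depth is not part of the lists. With 1 library per antibody no value has a replicate check, so no test was made and every count describes these libraries. A list of peaks holds no expression values, so the identity of the line and the activity of the genes were not measured.

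Promoter peaks of both PRMT6 and PARP1 were found at NR1D1, NR1D2, DBP and BHLHE40, and TEF had a PARP1 peak only. PRMT6 promoter peaks thus lay at 4 of 9 genes, against 18.3% of all protein-coding genes, and PARP1 promoter peaks at 5 of 9, against 22.5%. Both lists had one at 4 genes (13.4% of all genes). At 3 of these, NR1D1, NR1D2 and DBP, a peak of each list overlapped by at least 1 bp, which was the case at 12.9% of all genes. With promoters taken from 2 kb upstream to 500 bp downstream, both lists had a peak at 2 genes, DBP and BHLHE40, and only DBP kept an overlap. The shares of all genes above are for 3 kb on either side and are no background for this narrower window. Within 3 kb, RORA, HLF, NFIL3 and BHLHE41 had no promoter peak in either list. By the shares of all genes given above, most protein-coding genes had none either. Because the genes were picked as clock genes, and the study had reported on this pathway from the same libraries, a count above the background is not independent evidence about them.

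**Figure D1:**
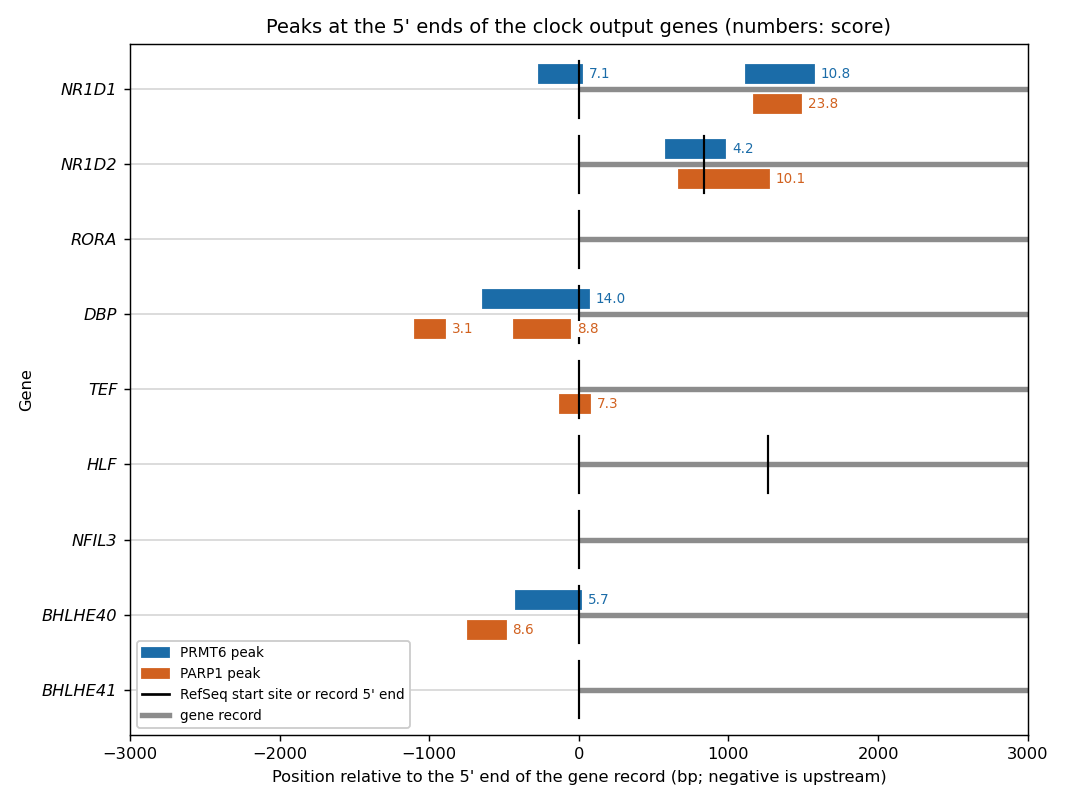
Peaks within 3 kb of the 5′ end of each gene record, drawn to scale in bp with upstream to the left, PRMT6 above and PARP1 below the line, and the score beside each peak. PRMT6 and PARP1 peaks coincide at NR1D1 downstream of the start, at the second start of NR1D2 and upstream of DBP, while those of BHLHE40 lie side by side and 4 genes are empty.

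The sequence upstream of a start site is shown for 5 genes in which a PRMT6 peak lay over some or all of it, first the REV-ERB genes and the PAR bZIP genes, then BHLHE40. The sequences are from RefSeq in GRCh38.p14 and run 5′ to 3′ over the 250 bases that precede each start, and none of these stretches overlaps an exon of its own gene in the GENCODE annotation of GRCh37. NR1D2, TEF and BHLHE40 are shown because the PRMT6 peak lay over a clock motif, and NR1D1 and DBP because it lay over a start without one. The second TEF start itself lay 7 bp outside its peak, and no PARP1 peak reached the stretches of NR1D1, TEF and BHLHE40. Capitals mark an E-box (CACGTG, which reads the same on both strands), a D-box (TTATGTAA or TTACGTAA) or the core of a ROR element (TAGGTCA or TGGGTCA), searched on both strands. In NR1D2 the D-box and the ROR element core lie on the opposite strand, so that their reverse complements are printed.
NR1D1, start 1, chr17:40100590-40100839, minus strand: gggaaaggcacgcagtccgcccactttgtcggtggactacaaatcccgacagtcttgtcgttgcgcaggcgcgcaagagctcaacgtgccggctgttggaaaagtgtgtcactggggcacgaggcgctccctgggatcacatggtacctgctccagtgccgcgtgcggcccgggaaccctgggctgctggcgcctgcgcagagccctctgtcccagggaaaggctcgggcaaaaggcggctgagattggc
NR1D2, start 2, chr3:23945871-23946120, plus strand: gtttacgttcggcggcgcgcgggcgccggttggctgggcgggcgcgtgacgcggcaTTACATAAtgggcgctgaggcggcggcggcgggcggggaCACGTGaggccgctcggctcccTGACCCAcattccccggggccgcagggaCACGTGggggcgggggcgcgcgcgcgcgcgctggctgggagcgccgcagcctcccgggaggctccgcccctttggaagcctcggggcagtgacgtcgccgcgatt
DBP, start 1, chr19:48637380-48637629, minus strand: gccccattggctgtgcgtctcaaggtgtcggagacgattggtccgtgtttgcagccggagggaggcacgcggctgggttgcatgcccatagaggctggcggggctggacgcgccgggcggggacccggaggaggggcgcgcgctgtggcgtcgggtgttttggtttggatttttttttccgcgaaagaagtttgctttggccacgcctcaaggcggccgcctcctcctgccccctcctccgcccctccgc
TEF, start 2, chr22:41381692-41381941, plus strand: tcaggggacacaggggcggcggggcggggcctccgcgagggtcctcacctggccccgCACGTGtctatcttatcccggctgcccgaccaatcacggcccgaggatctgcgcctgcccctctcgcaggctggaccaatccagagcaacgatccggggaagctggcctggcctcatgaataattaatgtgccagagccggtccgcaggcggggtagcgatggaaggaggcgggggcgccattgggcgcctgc
BHLHE40, start 1, chr3:4979187-4979436, plus strand: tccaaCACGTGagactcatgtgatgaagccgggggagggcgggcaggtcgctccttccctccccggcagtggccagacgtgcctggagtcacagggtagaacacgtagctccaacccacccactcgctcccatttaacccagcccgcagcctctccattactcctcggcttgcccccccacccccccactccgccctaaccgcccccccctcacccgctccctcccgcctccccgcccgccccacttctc

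Among the repressors of the ROR element, NR1D1 (REV-ERBα; chromosome 17, 40092793 to 40100589, minus strand) held the highest-scoring PARP1 peak of all 9 genes. That peak (40099103 to 40099419) had a score of 23.8 and ranked 130 of 11651. It lay 1170 to 1486 bp downstream of the 5′ end, inside the record, and the whole of it, 317 bp, was covered by a PRMT6 peak (40099016 to 40099470, score 10.8, rank 905 of 9080). The centres of both peaks were 18 bp apart. A further PRMT6 peak (40100565 to 40100853, score 7.06, rank 2525, smallest width of 288 bp) spanned the 5′ end itself, from −264 to +24 bp. Negative positions are upstream. No PARP1 peak overlapped this further PRMT6 peak. The nearest PARP1 peak began 1146 bp away. The site with both proteins at NR1D1 was therefore not the start site but a stretch more than 1 kb into the gene, and only PRMT6 had a peak on the start. Whether that stretch is exonic or intronic was not analysed here.

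NR1D2 (REV-ERBβ; chromosome 3, 23945286 to 23980617, plus strand) has 2 RefSeq start sites, 835 bp apart, and the peaks lay at the second. Relative to it, the PRMT6 peak (23945866 to 23946265) reached from −255 to +144 bp and the PARP1 peak (23945956 to 23946559) from −165 to +438 bp. They shared 310 bp. In rank they stood apart, since the PRMT6 peak had a score of 4.19, at percentile 12 of its list (rank 7963, shared by 50 peaks of that score), and the PARP1 peak a score of 10.1, at percentile 82.3 (rank 2057). The first start had no base under a peak within 250 bases upstream and 50 bases downstream. NR1D2 shares these peaks with a neighbour. NKIRAS1, which encodes an inhibitor of NF-κB signalling, starts on the other strand at 23946562, and the PARP1 peak ended 3 bp from that start. The signal of the genes cannot be told apart here. A PARP1 peak without PRMT6 lay further inside the record (23959373 to 23959647, score 7.19, rank 4563).

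RORA (chromosome 15, 60488284 to 61229302, minus strand), the activator that competes with the REV-ERB proteins, had no peak within 3 kb of its 5′ end. Its record is 741 kb long and contained 2 PRMT6 peaks, both of the smallest width in the list, 288 bp. The peak nearer the start (61216831 to 61217119) lay 12183 bp downstream with a score of 4.79 that 897 peaks share, and the other (60766915 to 60767203) lay 462099 bp downstream at percentile 1.88. Neither overlapped a PARP1 peak. The PARP1 peak counted for RORA (60478992 to 60479259, score 5.93, rank 6769) was 9025 bp beyond the 3′ end of the record and spanned the starts of ICE2, a subunit of the little elongation complex, and of the antisense gene RORA-AS1. Of the 315 genes with records over 500 kb, 74.0% had a peak of either list inside or within 20 kb, compared with 46.6% of the 5474 genes under 10 kb.

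Of the PAR bZIP activators, DBP (chromosome 19, 48630030 to 48637379, minus strand) held the highest-scoring PRMT6 promoter peak among the 9 genes. This peak (48637310 to 48638018, score 14, rank 444) spanned the 5′ end from −639 to +69 bp. The PARP1 peak (48637436 to 48637813, score 8.78, rank 2841) lay wholly within it and ended 57 bp before the start. A second PARP1 peak further upstream (48638271 to 48638471) had a score of 3.13 and ranked 11576 of 11651, near the end of the list. The pseudogene SEC1P starts on the other strand 21 bp beyond the PRMT6 peak, so the starts of DBP and SEC1P are divergent. The record of the protein-coding gene CA11, on the minus strand, overlapped the PRMT6 peak and the second PARP1 peak. The 5′ end of CA11 lay 8169 bp from that PRMT6 peak.

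A second pair of overlapping peaks within reach of DBP belonged to other genes by position. The PRMT6 peak (48619102 to 48619669, score 9.99, rank 1123) and the PARP1 peak (48619195 to 48619548, score 23.2, rank 144) lay more than 10 kb beyond the 3′ end of DBP. They covered the start of SPHK2, a sphingosine kinase gene, and the PRMT6 peak also covered that of RPL18, which encodes a ribosomal protein. The PARP1 peak there ranked higher than the one at the DBP promoter.

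TEF (chromosome 22, 41367455 to 41399326, plus strand) had the proteins at different starts. The PARP1 peak (41367332 to 41367532, score 7.32, rank 4365, smallest width of 200 bp) spanned the first start from −123 to +77 bp. The PRMT6 peak (41381573 to 41381935, score 6.97, rank 2602) ended 7 bp before the second RefSeq start, which lies 14487 bp further into the gene. It spanned the start of the noncoding gene LOC105373042 on the other strand. The distance between both peaks was 14041 bp, and neither overlapped a peak of the other list. When a peak within 3 kb of any RefSeq start was accepted, a setting added after the data were seen, TEF gained a PRMT6 peak, and the genes with both proteins went from 4 to 5, against 14.4% of all genes. By that rule 19.6% of all genes had a PRMT6 peak and 24.1% a PARP1 peak. A higher-scoring PRMT6 peak (41403781 to 41404207, score 12.9, rank 552) lay 4455 bp beyond the 3′ end of TEF without a PARP1 peak.

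HLF (chromosome 17, 55264960 to 55325187, plus strand), the third PAR bZIP gene, had no peak of either list in its record or within 20 kb. Outside that reach, PARP1 came nearest with a peak 57618 bp upstream of the 5′ end, and PRMT6 with one 199225 bp downstream. NFIL3 (chromosome 9, 91409045 to 91483497, minus strand), the D-box repressor, was also empty, with the nearest PARP1 peak 52942 bp and the nearest PRMT6 peak 247352 bp upstream of the 5′ end of its record. That record begins 58871 bp before the first NFIL3 start in the promoter table, and the 2 starts listed there had no peak nearby either. Such empty genes were common, as 42.0% of all protein-coding genes had no peak within the same reach.

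The bHLH repressors differed from each other. At BHLHE40 (DEC1; chromosome 3, 4979437 to 4985323, plus strand), which the study had tested by qChIP, the PRMT6 peak (4979014 to 4979450, score 5.71, rank 4076) covered the start from −423 to +13 bp. The PARP1 peak (4978696 to 4978949, score 8.63, rank 2990) lay at −741 to −488 bp, with 65 bp between the peaks. Both fell inside the record of the antisense gene BHLHE40-AS1, whose start lies 511 bp from the PRMT6 peak. Besides qChIP, the paper reports from Re-ChIP that PRMT6, PARP1 and CUL4B occupy the BHLHE40 promoter together. The 65 bp gap describes the called peaks only and does not test joint occupancy. PARP1 had 2 further peaks past the 3′ end of BHLHE40. The nearer (4986882 to 4987280, score 12.3, rank 1175) lay 1559 bp beyond the record and outranked the promoter peak, and the other (4994905 to 4995111, score 7.72, rank 3909) lay 9582 bp beyond it. No PRMT6 peak overlapped these.

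BHLHE41 (DEC2; chromosome 12, 26120030 to 26125037, minus strand) had no promoter peak. A PRMT6 peak (26114184 to 26114472, score 4.48, rank 6841, a score that 994 peaks share) and a PARP1 peak (26114128 to 26114368, score 6.93, rank 4889) overlapped by 185 bp downstream of the gene, 5558 and 5662 bp beyond the 3′ end of the record. No other gene record overlapped them, and no 5′ end of known strand lay within 3 kb.

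**Figure D2:**
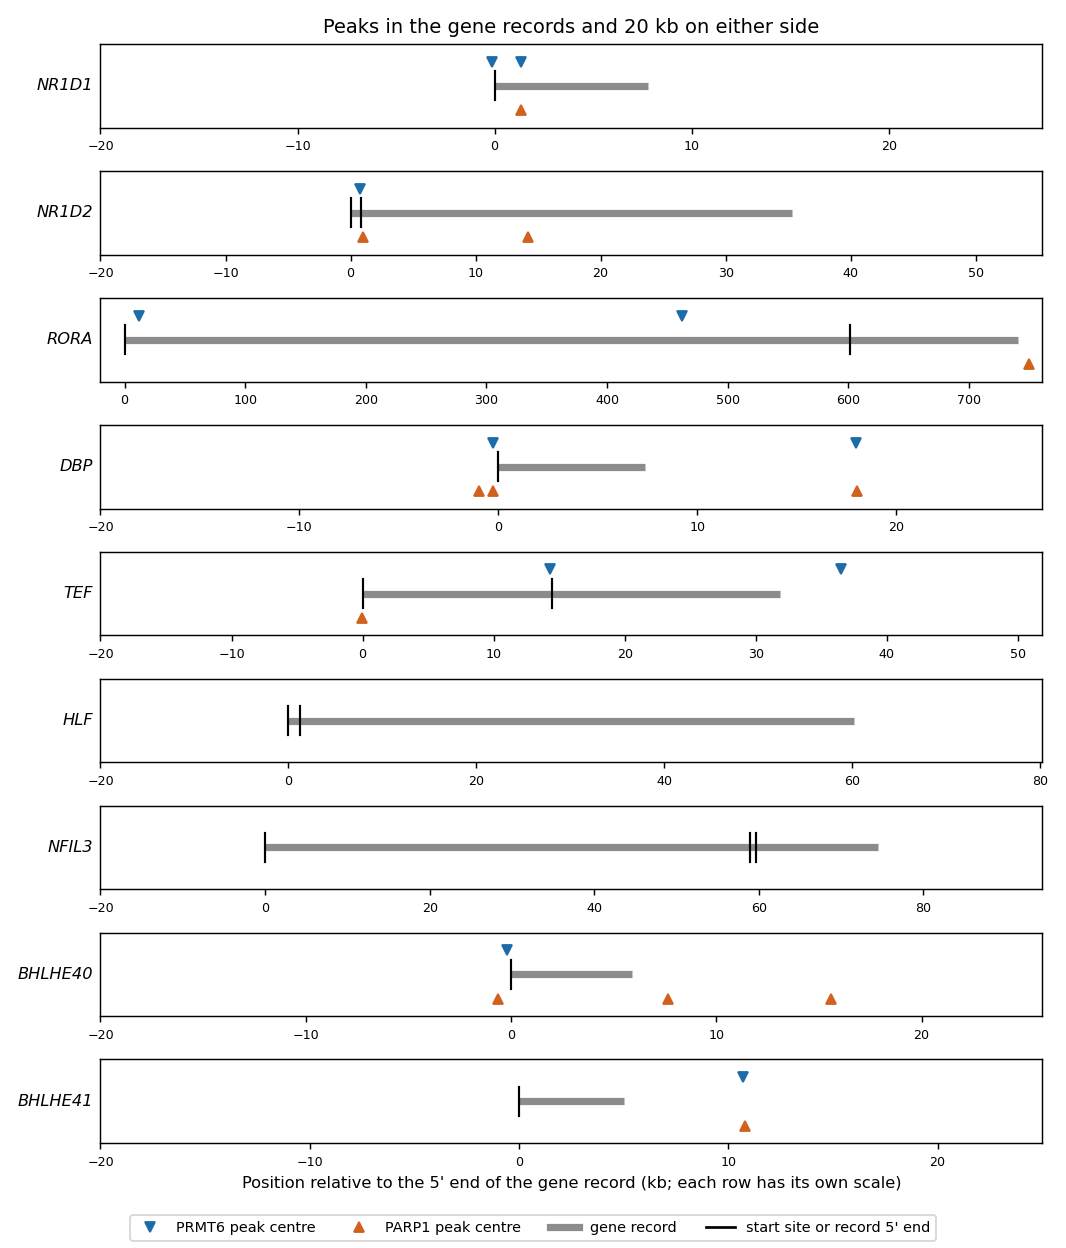
Centres of all PRMT6 peaks (above) and PARP1 peaks (below) in each gene record and 20 kb on either side, in kb from the 5′ end, with a separate scale for each gene. Of 11 PRMT6 and 12 PARP1 peaks, those of RORA are spread over a record of 741 kb, TEF has its proteins at different starts, and HLF and NFIL3 have none.

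In all, 11 PRMT6 peaks and 12 PARP1 peaks lay in the records or within 20 kb, each set at 7 of the 9 genes. Among all protein-coding genes, 43.2% had a PRMT6 peak and 48.4% a PARP1 peak by this rule. Over the summed length of records and flanks this was 0.828 PRMT6 and 0.903 PARP1 peaks per 100 kb, where all protein-coding genes had 0.605 and 0.753. Without RORA, whose record makes up most of that length, it was 1.64 and 2.01. The other 8 records are all shorter than 100 kb, whereas the figures for all genes keep the longest records. The values without RORA therefore have no like background here. Of the PRMT6 peaks, 5 of 11 overlapped a PARP1 peak (45.5%, 95% exact binomial interval 16.7% to 76.6%), and of the PARP1 peaks 5 of 12 overlapped a PRMT6 peak (41.7%, 15.2% to 72.3%). The whole lists had 46.4% and 36.4%, inside these intervals, which are wide and cover counting error only. At the promoters 3 of 5 PRMT6 and 3 of 6 PARP1 peaks overlapped, where 69.1% of the 3040 PRMT6 and 54.9% of the 3858 PARP1 peaks at the promoters of all protein-coding genes did.

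The promoter peaks of the 9 genes ranged over much of each list. Among the 3599 genes with a PRMT6 promoter peak, DBP stood at position 366 by its best peak, NR1D1 at 713, BHLHE40 at 2539 and NR1D2 at 3435. Among the 4429 genes with a PARP1 promoter peak, NR1D1 stood at position 79, NR1D2 at 1117, DBP at 1485, BHLHE40 at 1550 and TEF at 2185. The order of the genes was not the same in the lists, with DBP first for PRMT6 and NR1D1 first for PARP1. For PARP1 each of these 5 promoters had a best peak at or above the median percentile of all promoter genes, 62.3. For PRMT6 that median was 71.8, with NR1D1 (90.0) and DBP (95.1) above it and BHLHE40 (55.1) and NR1D2 (12) below it.

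**Figure D3:**
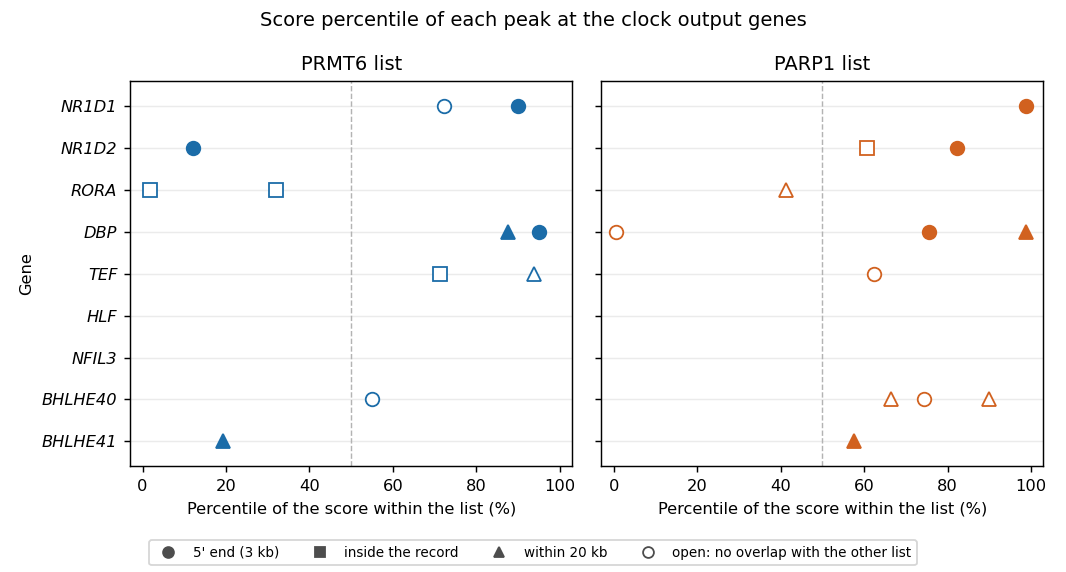
Percentile of the score within its own list (x axis, %) for each PRMT6 (left) and PARP1 (right) peak of the clock output genes, by place, with filled symbols for peaks that overlap the other list. NR1D1 reaches percentile 98.9 in the PARP1 list and DBP 95.1 in the PRMT6 list, while NR1D2 stands at 12 for PRMT6 and 82.3 for PARP1.

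The elements through which these proteins act were then located in the members' own promoters. RefSeq lists 13 promoter windows for the 9 genes, each from 250 bases before to 50 bases after a start, although the 5′ ends of the RORA and NFIL3 records are not among them. An E-box was found in 5 of the 13 windows, of NR1D2 (second start), TEF (both starts), BHLHE40 and BHLHE41, against 8.34% of 22198 windows of protein-coding genes. The 5 windows belong to 4 genes. Genes known as targets of the E-box activators were among those listed, so this count is not independent evidence about them. A D-box was found in 1 window (0.784% of all windows) and a ROR element core in 2 (4.91%). None of the matches overlapped another. A match says only that these letters are present, and its absence from NR1D1, DBP, HLF and the second start of RORA only that they are not in these windows.

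The second start of NR1D2 held 4 matches, with the first base of a D-box at −194, of E-boxes at −155 and −105 and of a ROR element core at −133. The PRMT6 peak covered all 4, and the PARP1 peak all but the D-box, which lay 22 bp outside it. At TEF the E-box at −193 of the second start lay under the PRMT6 peak, whereas the E-box at −195 of the first start lay 67 bp outside the PARP1 peak. At BHLHE40 the E-box at −245 lay under the PRMT6 peak and 243 bp from the PARP1 peak. Counted over all windows, 6 of 9 matches lay under a PRMT6 peak and 3 under a PARP1 peak. The second start of NR1D2 gave 4 of those 6 and all of those 3. In its window of 300 bases the PRMT6 peak covered all 300 and the PARP1 peak 215, so matches there fell under peaks almost by necessity. Whether matches lay under peaks more often than other bases of the windows was not tested.

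The other 3 matches lay under no peak. They are shown with at most 12 bases on either side, since NFIL3 and BHLHE41 carry a clock element within 50 bases of a start and yet have no promoter peak. The match of the first TEF start is given beside them for comparison with the second start above. Capitals again mark the E-box or, in NFIL3, the ROR element core, here on the reverse strand.
TEF, start 1, chr22:41367248-41367277, plus strand: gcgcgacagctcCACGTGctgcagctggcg
NFIL3, start 3, chr9:91423833-91423853, minus strand: ggcgctcggaacTGACCTAct
BHLHE41, start 1, chr12:26125068-26125097, minus strand: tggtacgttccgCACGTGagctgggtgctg

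**Figure D4:**
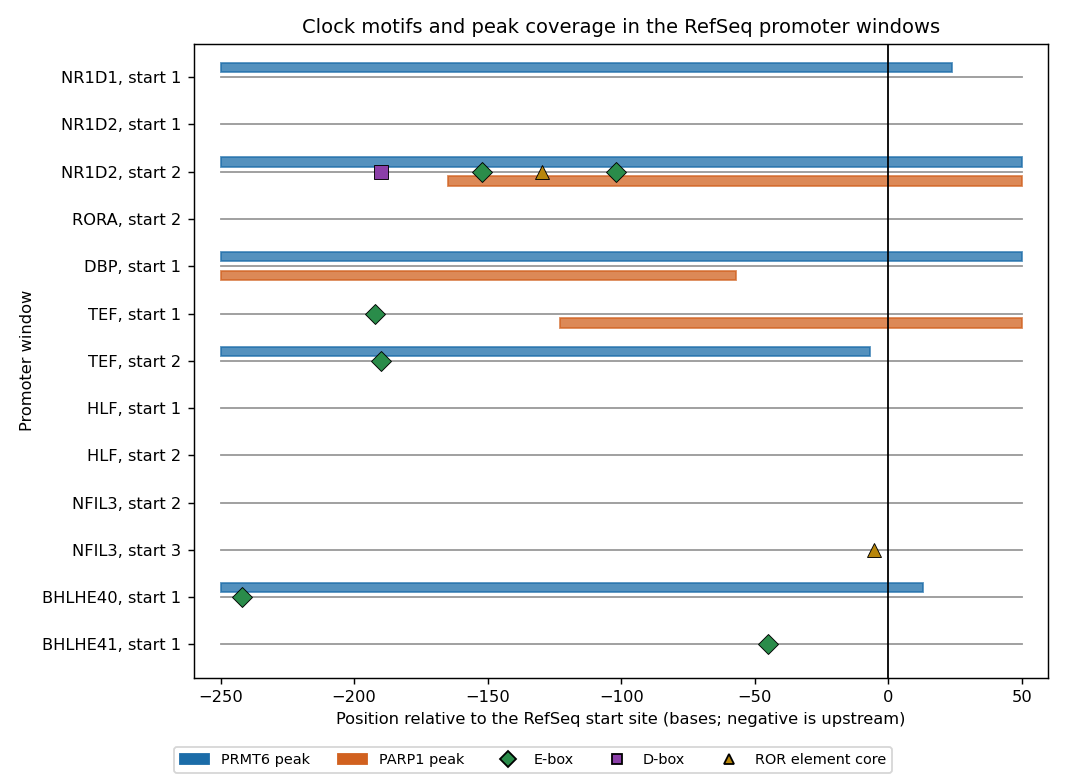
Promoter windows of the 9 genes, from 250 bases before to 50 bases after each RefSeq start, with the bases under PRMT6 and PARP1 peaks as bars and motif matches as symbols. The second start of NR1D2 carries 4 matches under the PRMT6 peak, while the matches of NFIL3, BHLHE41 and the first start of TEF lie outside the peaks.

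Promoter peaks in both lists were rarer at promoters poor in CpG dinucleotides. The CpG content was taken as the observed over expected CpG number of the window at the 5′ end, which 13819 protein-coding genes had. In the lowest decile 2.75% of genes had a PRMT6 and 3.98% a PARP1 promoter peak, and in the highest decile 29.5% and 35.5%. The shares rose up to the fifth decile, where they were 25.5% and 32.6%, and from there to the highest they stayed between 25.5% and 29.5% for PRMT6 and between 30.5% and 35.5% for PARP1. Both lists had one at 1.37% of genes in the lowest decile and at 20.9% in the highest. Of the 13 windows of the clock output genes, 10 lay within these upper deciles, over which the order by CpG content went with little difference in the share. The second start of NR1D2 (1.13), DBP (0.924), NR1D1 (0.811) and BHLHE40 (0.725), with promoter peaks in both lists, were all among them. Of the 6 windows of genes without a promoter peak, 4 lay above the median of 0.767, whereas the second starts of RORA (0.078) and HLF (0.622) lay below it. The first start of HLF had a value of 0.999 (above 87.9% of genes), in a decile where 28.4% of genes had a PRMT6 and 35.2% a PARP1 promoter peak, and the NFIL3 starts had 1.01 and 1.09. BHLHE41 had 0.826. TEF differed between its starts, with 0.393 at the first, under the PARP1 peak, and 0.798 at the second, where the PRMT6 peak ends. These values stand beside the peaks only, and the part of CpG content in where peaks were called was not tested.

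**Figure D5:**
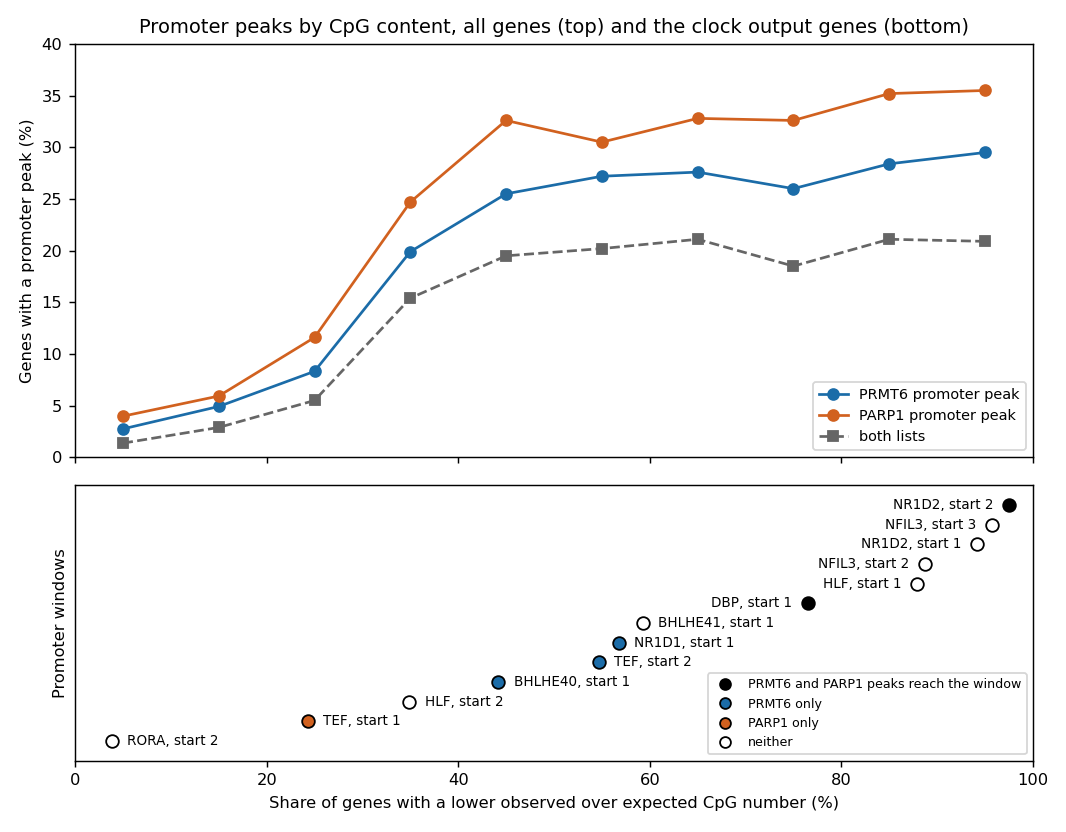
Share of protein-coding genes with a promoter peak by decile of promoter CpG content (top, %) and the place of each promoter window of the clock output genes on the same scale (bottom). The PRMT6 share rises from 2.75% in the lowest to 25.5% in the fifth decile and reaches 29.5% in the highest, and HLF (first start), NFIL3 and BHLHE41 lie above the median CpG content without a peak.

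Of 20 further clock genes, PRMT6 had a promoter peak at 6 and PARP1 at 8, beside 18.3% and 22.5% of all protein-coding genes. PER3, CRY2, CSNK1A1 and NOCT were among the 6 with both (13.4% of all genes), and 2, CRY1 and TIMELESS, had a PARP1 peak only. All 6 had overlapping peaks, as did 96.3% of the 2636 genes with promoter peaks in both lists, whereas BHLHE40 did not. NOCT, which encodes the rhythmic phosphatase nocturnin, had ranks of 2871 and 7325. CLOCK, BMAL1 and NPAS2, the E-box activators, had no promoter peak, and neither had PER1 and PER2, which encode repressors of CLOCK and BMAL1, nor BMAL2, CIART, CSNK1D and CSNK1E. For PER1 this differs from the paper, which reports both proteins at its promoter by sequencing and by qChIP. The absence here holds only for the deposited lists and the 3 kb rule. The same background shares apply to relatives of the members outside the clock. Of 11 nuclear receptor genes, a PRMT6 promoter peak lay at RXRB and PPARD, and a PARP1 one at 0. Of 7 bZIP genes, ATF5 and DDIT3 had both, with overlap. Of 8 bHLH repressor and ID genes, a PARP1 promoter peak lay at HES1, ID1 and ID3, and a PRMT6 one at 0. These lists are small, and their differences were not tested.

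Likeness between promoters was measured by the distance between the pairs of best percentiles in both lists, over the 2636 genes with promoter peaks in both, and so over 2 libraries. The nearest gene to NR1D1 that is named here was EPM2AIP1 (percentiles 89.0 and 98.5). For NR1D2 it was NKIRAS1, at distance 0 because the peaks are the same, followed by EEF1AKMT3. DBP was nearest to PI4K2A (94.7 and 75.9) and then to GGN, and BHLHE40 to ARRDC3 (55 and 74.8) and then to CCDC88B.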

How the data were processed

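Peaks had been called by the authors in each library separately, and the deposited lists give chromosome, start, end and a score, the −log10 of the p-value. The submitters' notes name CASAVA 1.4, Bowtie 0.12.8, MACS and MACS2. Thresholds, duplicate handling and any control library are not given in the sources used here. The notes name hg19, but 55 PRMT6 and 61 PARP1 peaks ended beyond GRCh37 chromosome ends. Within 1 kb of a protein-coding 5′ end lay 30.1% and 29.4% of peaks with GRCh38 records, and 4.04% and 3.94% with GRCh37 records, so positions were read as GRCh38.

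RefSeq records of GRCh38.p14 were used. Strand came from the RefSeq promoter table for 15842 genes and from the GENCODE gene of the same name for 3873, and 318 were left out. Positions are printed as listed. If starts count from 0, distances shift by 1 bp. Overlap meant at least 1 shared bp. Python 3.11.15, numpy 2.4.6, pandas 2.3.3, scipy 1.17.1 (95% Clopper-Pearson intervals) and matplotlib 3.10.9 were used, and the assignment was checked on simulated peaks. Exons and introns under the peaks were not analysed here. Named were the 9 members, their neighbours at peaks, fixed lists of clock and related genes with a promoter peak, and the genes most like each member. Some genes of these lists are counted but not named. Members, lists and motifs were chosen with earlier results of these data known. Alternatives covered score, width, window, reach, overlap and start site.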

Additional observations from a re-analysis of the deposited data

How the results depend on the processing

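Of 39 recomputed values, 32 were labelled the same as the value in the text, 7 moved and 0 reversed. Most were counts, which have no direction to reverse. The label was broad, as with peaks above the median score it took in a fall from 3 to 2 genes with overlapping promoter peaks. It also took in a fall from 41.7% to 30% of PARP1 peaks that overlapped. With promoters taken from 2 kb upstream to 500 bp downstream, which leaves out the sites inside NR1D1 and NR1D2, PARP1 promoter peaks remained at 3 genes, both lists at 2 and overlapping peaks at 1. The 11 PRMT6 peaks at the genes fell to 7 when only peaks above the median score were kept and to 7 without peaks of the smallest width, and a reach of 50 kb raised the counts to 17 PRMT6 and 19 PARP1 peaks, as that setting must. With peaks above the median score, NR1D2 lost its PRMT6 promoter peak, so that PRMT6 lay at 3 genes, both lists at 3 and overlapping peaks at 2. Without the smallest width TEF lost its PARP1 promoter peak, and within 1 kb of the 5′ end NR1D1 lost its PARP1 promoter peak. No share of all protein-coding genes is given for these settings, so the falls are not results about these genes in particular. No paired analysis was possible because there is a single library for either antibody. Read depth is unknown, so a missing peak may be a weak one.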

Other observations

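Farther out, from 20 to 50 kb of the records, lay 6 PRMT6 and 7 PARP1 peaks, 4 of each overlapping the other list. In the whole lists 46.4% of PRMT6 and 36.4% of PARP1 peaks overlapped, and the difference was not tested on so few peaks. Upstream of NR1D1, a PRMT6 peak (chromosome 17, 40139997 to 40140372, rank 1697) and a PARP1 peak (40140112 to 40140391, rank 2297) lay within 3 kb of the start of CASC3, which encodes a subunit of the exon junction complex. Beyond the 3′ end of TEF, peaks of both lists (chromosome 22, 41448333 to 41448757, rank 1460, and 41448357 to 41448576, rank 8871) lay within 3 kb of the start of TOB2, an antiproliferative gene. DBP had 2 overlapping pairs, neither with a gene start within 3 kb. The upstream pair (chromosome 19, 48660878 to 48661275 and 48660901 to 48661214) ranked 2479 and 2175. BHLHE41 had a PRMT6 peak downstream (rank 4835) and a PARP1 peak upstream (rank 3109), without overlap.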
